A study of Mus musculus with 6 samples.

Results

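The genes described here are 33 components of DNA repair and of the Fanconi anaemia pathway, chosen by symbol from the 23420 genes of the deposited tables, and all 33 were present. The rule names them by function and uses no measured value, but they were chosen with earlier results of these data known. All 33 passed the filter on low counts that left 12653 genes for testing. The series holds RNA of LSK cells, a bone marrow fraction without lineage markers, sorted on Sca-1 and c-Kit, that contains stem cells and multipotent progenitors. It compares 3 bcat(ex3)osb mice, whose osteoblasts carry constitutively active beta-catenin signalling (mutant mice below), with 3 wild-type (WT) littermates, 1 library per mouse. The labels name no treatment, age or sex for these mice, nor the promoter that directs the allele to osteoblasts, and the LSK cells themselves are not described as carrying a change. The question the design poses is how signalling in a niche cell relates to transcripts of the blood progenitors beside it, in a study of myeloid malignancies.

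DNA repair is a division of labour between enzymes. Breaks through both strands are either copied from the sister chromatid by homologous recombination, which works in S and G2 phase, or rejoined directly by end joining, which works through the whole cell cycle. The Fanconi proteins unhook crosslinks between the strands, mismatch repair corrects copying errors, and a further system mends breaks in 1 strand. Blood stem cells depend on these systems: loss of Fanconi genes leads to bone marrow failure, and reduced activity of the end-joining ligase depletes stem cells with age in mice.

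Total counts lay between 15431235 and 19956774 per library. Mutant mouse 2 stood apart from the other libraries along principal component 1 (50.8% of variance). Both mouse 2 libraries, mutant and WT, were poor in long transcripts: genes of at least 4256 bases, the upper quartile, had a median log2 level relative to WT of -0.46 and -0.27 there, and between 0.06 and 0.20 in the other 4. The repair genes are long, with a median of 4081 bases against 2810 for all genes tested. Xist and Y-linked counts marked mutant mice 1 and 2 as male and the other 4 mice as female, so sex and genotype are partly confounded. Kit, which defines the sort with Sca-1, was at 345 to 725 CPM (counts scaled to library size by TMM) in mutant mice and 323 to 1002 CPM in WT mice. The transcript of Sca-1 itself, Ly6a, was at 65.9 to 81.5 CPM in mutant and 148 to 162 CPM in WT mice. Of 11 B lineage markers 0 lay higher in mutant mice, and their summed level was 658, 97.0 and 74.2 CPM in mutant mice 1, 2 and 3 against 661 to 1176 CPM in WT mice, with Pax5 at 0 in mutant mouse 2. All 8 granulocyte-monocyte progenitor markers lay higher, with a summed level of 6329 to 11460 CPM in mutant and 1277 to 3166 CPM in WT mice. All 7 macrophage markers tested lay lower, 5 of them without overlap, with a summed level of 15.03 to 63.1 CPM in mutant and 68.2 to 96.8 CPM in WT mice. Of 7 mature granulocyte markers 4 had positive and 3 negative values. Levels of 3 libraries are listed below in the order of mice 1, 2 and 3. In bulk RNA, fewer cells of a type and less RNA per cell cannot be told apart.

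The median difference of the repair genes by genotype was small, and no test of the group was run. By edgeR's quasi-likelihood test, 0 of 33 passed an adjusted p under 0.05, where 0% of all 12653 genes did. At an unadjusted p under 0.05, 2 of the 33 genes were lower in mutant mice and 0 higher. Over all genes 6.56% reached that p in either direction, 3.13% as lower and 3.43% as higher. DESeq2 and limma-voom also called 0 of the 33 at an adjusted p under 0.05, where DESeq2 called 1.34% and limma-voom 0% of all genes. The median log2 fold change (mutant over WT) of the 33 genes was -0.06, against 0.00 for all genes tested. Of the 33, 21 had a negative and 12 a positive value, where 49.7% of all genes had a negative one. Without mutant mouse 2 the split was 12 negative and 21 positive, and the median was 0.06. Without the mouse 2 library of each genotype it was 19 negative and 14 positive, and the median was -0.01. On log2(FPKM + 1) it was 27 negative and 6 positive, with a median of -0.15, on a scale where the median of all genes was -0.06.

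The 2 genes under an unadjusted p of 0.05 encode partners of a single enzyme. Lig4 is the DNA ligase that seals a break in end joining, and Xrcc4 is the scaffold that binds and stabilises it. Both were lower in every mutant mouse than in every WT mouse. Such a separation downward was found for 7.67% of all genes tested.

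Their start sites are shown first, because both genes lie head to head with a neighbour on the opposite strand, whose level is given below. Lig4 (chromosome 8, 9969049 to 9977686, minus strand, GRCm38) starts 21 bases from Abhd13, and exons of Xrcc4 (chromosome 13, 89774027 to 90089608, minus strand) and of Tmem167 share 112 bases. Of 7 motifs searched on both strands in the 250 bases before each start (RefSeq, GRCm38.p6), CCGGAAG, the core bound by ETS factors, was found upstream of both genes; it was singled out after the matches were seen. The 30-base windows that hold it, with the motif or its reverse complement in capitals, are the following, read 5′ to 3′ on the gene's strand, with those of 3 repair genes whose genotypes overlapped or that lay higher in mutant mice.
Lig4, first start, chr8:9977822-9977851, minus strand: cgcagcctccaCTTCCGGctcgcgcgcggt
Lig4, second start, chr8:9976324-9976353, minus strand: tgtggcggcagCTTCCGGtcggagtggggc
Xrcc4, near the start, chr13:90089609-90089638, minus strand: cgtgataggcttctgttaCCGGAAGaggtg
Xrcc4, farther upstream, chr13:90089730-90089759, minus strand: gccacatcaccCTTCCGGgccggggcggaa
Palb2, chr7:122133052-122133081, minus strand: gattccagctaCTTCCGGttgatcggccac
Brip1, chr11:86201324-86201353, minus strand: gcggtgctcgtCTTCCGGtcccgccaagta
Pms2, chr5:143909926-143909955, plus strand: cgctagcccgcCCGGAAGgggcggatcata

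CCGGAAG was in the windows of 5 of the 27 repair genes with a matched promoter, or 6 of their 29 promoters. It was in 13.4% of promoters of tested genes and in 6.9% of all 32851 promoters. The E2F sites TTTCCCGC and TTTGGCGC were in 5 of 27 genes and 5 of 29 promoters, all as TTTCCCGC. These genes were Bard1, Brca2, Chek2, Fancg and Xrcc6, and 2.4% of promoters of tested genes held either site. CCAAT, bound by NF-Y, was in 15 of 27 genes, 16 of 29 promoters and 35.2% of promoters of tested genes. GGGCGG, bound by Sp1, was also upstream of both Lig4 and Xrcc4. It was in 17 of 27 genes, 18 of 29 promoters and 56.9% of promoters of tested genes. These matches describe letters and no binding was measured. Abhd13 measured 44.9, 29.0 and 42.5 CPM in the mutant libraries and 43.4, 30.8 and 41.2 CPM in the WT libraries, a log2 fold change of 0.01 ± 0.25 (SE). Tmem167 measured 105, 124 and 88.8 CPM in the mutant libraries and 83.5, 111 and 90.8 CPM in the WT libraries, with 0.16 ± 0.21. The genotypes overlapped for both neighbours, which were chosen for their position. Whether the lower Lig4 and Xrcc4 are local to these genes was not tested.

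Lig4 measured 2.85, 0.387 and 2.88 CPM in the mutant libraries and 6.06, 6.05 and 6.37 CPM in the WT libraries. The WT mice were nearly equal, mutant mice 1 and 3 lay at less than 3 CPM, and mutant mouse 2 lay far below them, with 6 counts. The mutant mean was 2.04 ± 1.43 CPM and the WT mean 6.16 ± 0.18 CPM (SD over 3 mice), for a log2 fold change of -1.58 ± 0.68 (SE), an unadjusted p of 0.0472 and an edgeR adjusted p of 0.755. The difference did not rest on mutant mouse 2, without which the log2 fold change was -1.10 with an unadjusted p of 0.0203. It lost that p without WT mouse 1, 2 or 3 (unadjusted p of 0.0858, 0.0896 and 0.0985), with values of -1.60, -1.60 and -1.56. With sex as a covariate the value was -1.09. That fit compares mutant mouse 3 alone with the WT mice, because mutant mice 1 and 2 were the only males. On log2(FPKM + 1) the log2 fold change was -0.80, a scale that compresses low transcripts. Mutant mouse 1 and WT mouse 1 had nearly the same summed level of B lineage markers, 658 and 661 CPM, and 2.85 and 6.06 CPM of Lig4. The part of the higher granulocyte-monocyte markers in the difference was not tested.

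Xrcc4 measured 10.9, 8.58 and 13.9 CPM in the mutant libraries and 20.3, 21.6 and 15.9 CPM in the WT libraries. The groups did not overlap, but mutant mouse 3 and WT mouse 3 lay close together. The mutant mean was 11.1 ± 2.65 CPM and the WT mean 19.2 ± 3.00 CPM (SD over 3 mice), for a log2 fold change of -0.79 ± 0.29 (SE), an unadjusted p of 0.0250 and an edgeR adjusted p of 0.666. In the per-length unit FPKM, Xrcc4 exceeded Lig4 in every library, between 6.56 and 9.40 times in WT mice, and 10.04, 55.6 and 12.8 times in the mutant libraries. Without mutant mouse 2 and WT mouse 2 the log2 fold change of Xrcc4 was -0.55, with an unadjusted p of 0.0838. With sex as a covariate, which compares mutant mouse 3 alone with the WT mice, Xrcc4 had -0.47. Leaving out any of mutant mice 1 and 2 and WT mice 1 and 2 also took its unadjusted p past 0.05 (0.0555, 0.0504, 0.0674 and 0.0682).

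**Figure D1:**
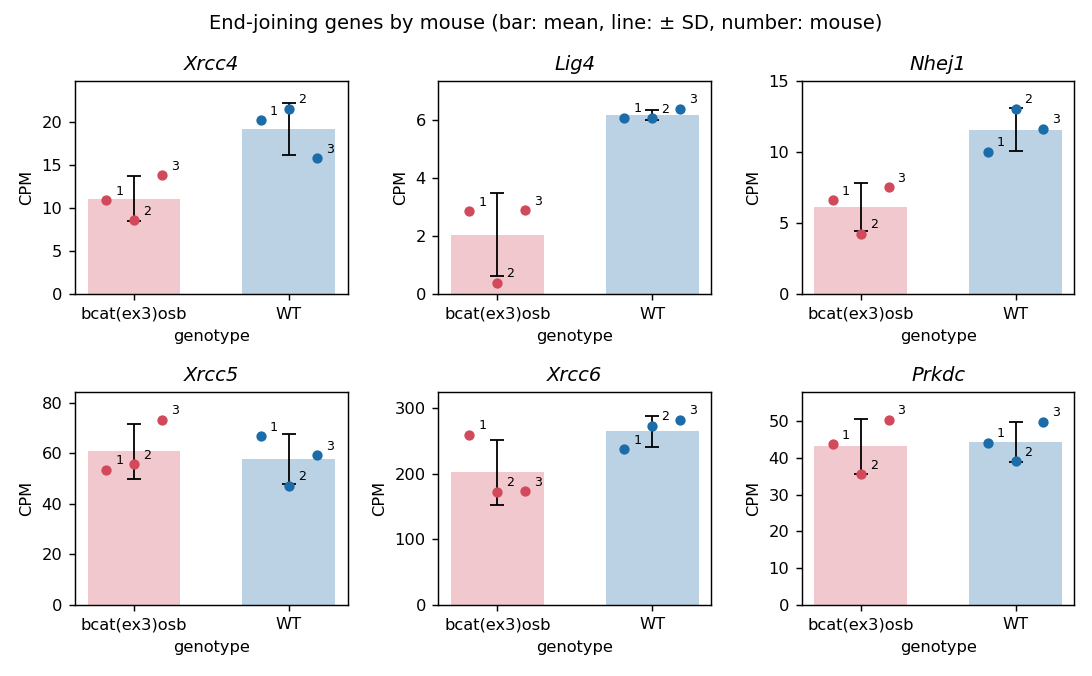
CPM of 6 end-joining genes by genotype; points are mice with their numbers, bars the mean of 3 mice and lines ± SD. Xrcc4, Lig4 and Nhej1 of all 3 mutant mice lie below all 3 WT mice, while Xrcc5, Xrcc6 and Prkdc overlap.

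The upstream part of end joining did not share this separation. Ku, the ring that first grips a broken end, is built from Xrcc6 (Ku70) and Xrcc5 (Ku80), and it recruits the kinase encoded by Prkdc. Xrcc6 measured 259, 173 and 173 CPM in the mutant libraries and 238, 273 and 283 CPM in the WT libraries. Mutant mouse 1 lay inside the WT range and the other mutant mice below it, and the log2 fold change was -0.39 ± 0.22 (SE) with an unadjusted p of 0.112. Without mutant mouse 1 it was -0.61 with an unadjusted p of 0.0251. Xrcc6 shares 344 exonic bases with Desi1 on the opposite strand, and whether the counting used strand is not given in the sources used here. Xrcc5, its partner, had a log2 fold change of 0.08 ± 0.22, with 53.4, 55.6 and 73.4 CPM in the mutant libraries and 66.6, 47.1 and 59.3 CPM in the WT libraries. Prkdc had -0.04 ± 0.22. The ratio of Xrcc6 to Xrcc5 in FPKM varied from 2.86 in mutant mouse 3 to 7.01 in WT mouse 2, and the groups overlapped.

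Nhej1, which encodes XLF, the filament partner of XRCC4, is not among the 33 genes and comes from a wider list of repair genes. It measured 6.62, 4.26 and 7.54 CPM in the mutant libraries and 10.04, 13.1 and 11.7 CPM in the WT libraries. Its groups did not overlap, and its log2 fold change was -0.91 ± 0.34 (SE), with an unadjusted p of 0.0268 and an edgeR adjusted p of 0.680. With sex as a covariate, which compares mutant mouse 3 alone with the WT mice, it was -0.62. Poll, a gap-filling polymerase, and Tdp1, which trims blocked ends, were also lower in every mutant than in every WT mouse, at -0.36 ± 0.21 and -0.31 ± 0.17, with unadjusted p-values of 0.120 and 0.106. In all, 2 of the 5 end-joining genes among the 33 and 3 of the 9 tested on the wider list separated downward, where 7.67% of all genes did, and 0 of these 14 separated upward, where 6.89% did. Over all 33 genes the downward count was 2, close to the share of all genes, and the end-joining tally was made after the values were seen.

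**Figure D2:**
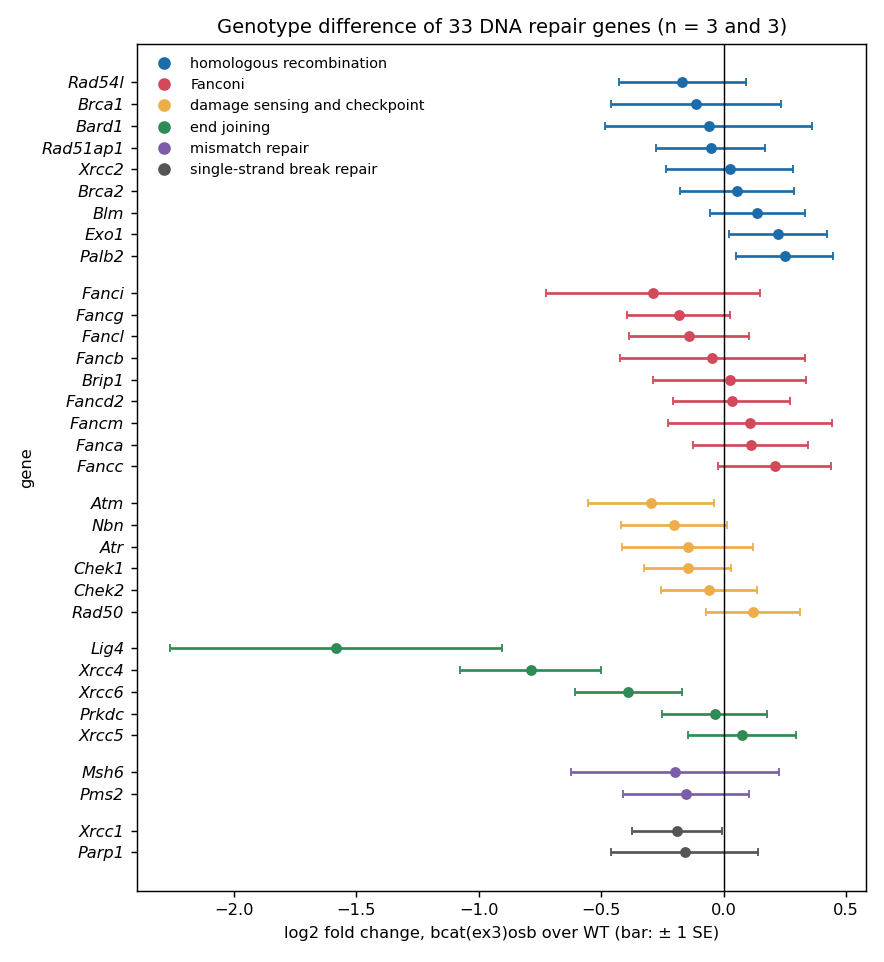
Log2 fold change of each of the 33 genes, mutant over WT, grouped by role; lines are ± 1 SE from edgeR with 3 mice per genotype. Lig4 (-1.58) and Xrcc4 (-0.79) lie farthest from 0, and the other 31 genes lie between -0.39 and 0.25.

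Homologous recombination genes had log2 fold changes from -0.17 (Rad54l) to 0.25 (Palb2), with a median of 0.02 over 9 genes. Their SEs reached 0.42 (Bard1), and equality of the genotypes was not tested. Palb2, the bridge that brings BRCA2 to BRCA1 at the break, was the 1 gene of the 33 that lay higher in every mutant than in every WT mouse, a separation that 6.89% of all genes showed. It measured 34.2, 30.3 and 29.7 CPM in the mutant libraries and 27.6, 24.5 and 27.1 CPM in the WT libraries. Its log2 fold change was 0.25 ± 0.20 (SE), with an unadjusted p of 0.243. Exo1, the nuclease that resects break ends, measured 99.9, 72.4 and 96.6 CPM in the mutant libraries and 81.3, 68.1 and 81.2 CPM in the WT libraries. Mutant mice 1 and 3 lay above all WT mice and mutant mouse 2 among them, and the log2 fold change was 0.22 ± 0.20. With the trend on gene length removed it was 0.31 with an unadjusted p of 0.0342, a level that 10.5% of all genes reached in that fit.

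Brca1, the ubiquitin ligase that steers a break toward recombination, varied more within a genotype than between them. It measured 79.9, 31.3 and 50.6 CPM in the mutant libraries and 69.9, 44.2 and 60.9 CPM in the WT libraries, with a log2 fold change of -0.11 ± 0.35 (SE). The mouse 2 library was the lowest in both genotypes. Its obligate partner Bard1 was the lowest of the 33 genes by WT FPKM, at 1.27, 1.22 and 1.01 FPKM in the mutant libraries and 0.74, 1.77 and 1.33 FPKM in the WT libraries. Here WT mouse 2 was the highest library, so the ratio of Brca1 to Bard1 in FPKM ran from 3.75 in WT mouse 2 to 15.01 in WT mouse 1, and from 3.48 to 9.41 in mutant mice. Brca2, a mediator of strand exchange, had a log2 fold change of 0.05 ± 0.23, and Rad51ap1, an accessory factor of strand exchange, had -0.05 ± 0.22. Xrcc2, a recombination factor, had 0.02 ± 0.26, and Blm, the helicase that dissolves joined chromosomes, had 0.14 ± 0.19.

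The 9 genes grouped here as Fanconi overlapped between the genotypes, where 14.6% of all genes did not. Their median log2 fold change was 0.02. Brca1, Brca2, Palb2 and Xrcc2 are not counted among them, because they were grouped under homologous recombination. In the Fanconi pathway a core complex, with Fancl as its ubiquitin ligase, tags the pair made by Fancd2 and Fanci. The tagged pair opens the crosslink for repair. Among core genes Fancc measured 36.3, 36.5 and 31.6 CPM in the mutant libraries and 23.0, 31.9 and 35.5 CPM in the WT libraries. WT mouse 1 was the low library, and the log2 fold change was 0.21 ± 0.23 (SE). Fancg measured 62.2, 41.9 and 62.4 CPM in the mutant libraries and 61.2, 62.6 and 65.5 CPM in the WT libraries. Only mutant mouse 2 lay apart for Fancg, and the log2 fold change was -0.18 ± 0.21. Fanca, Fancb, Fancl and Fancm had 0.11 ± 0.23, -0.05 ± 0.38, -0.14 ± 0.24 and 0.11 ± 0.34. Fancb is the 1 gene of the 33 on chromosome X.

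The pair at the centre of the pathway was lowest in the mouse 2 library of both genotypes, with a wider range for Fanci. Fanci measured 56.8, 23.2 and 68.5 CPM in the mutant libraries and 79.8, 34.6 and 67.2 CPM in the WT libraries, with a log2 fold change of -0.29 ± 0.44 (SE). Fancd2 measured 47.6, 43.6 and 46.7 CPM in the mutant libraries and 51.7, 31.5 and 51.5 CPM in the WT libraries, with 0.03 ± 0.24. The ratio of Fanci to Fancd2 in FPKM was 1.24, 0.55 and 1.52 in the mutant libraries and 1.60, 1.13 and 1.35 in the WT libraries. Brip1, the helicase partner of BRCA1, had 0.02 ± 0.31 and ranged from 37.1 to 90.1 CPM among mutant mice.

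Damage sensing and checkpoint genes had 5 negative values and 1 positive value, where 49.7% of all genes were negative, and 0 of 6 separated, where 14.6% of all genes did in either direction. Atm, the kinase activated by double-strand breaks, measured 56.0, 31.5 and 50.4 CPM in the mutant libraries and 50.2, 65.5 and 53.9 CPM in the WT libraries. Its log2 fold change was -0.30 ± 0.26 (SE), and without the mouse 2 library of each genotype it was 0.02. Nbn and Rad50 belong to the MRN complex, which tethers break ends and activates ATM. Nbn measured 65.9, 45.4 and 66.3 CPM in the mutant libraries and 67.9, 75.4 and 61.1 CPM in the WT libraries, with -0.20 ± 0.22, and mutant mouse 2 was again the low library. Rad50 had 0.12 ± 0.19. Atr, the kinase of stalled forks, and its effector Chek1 had -0.15 ± 0.27 and -0.15 ± 0.18, and Chek2, the effector of ATM, had -0.06 ± 0.20.

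Among mismatch and single-strand break repair genes, Parp1, Msh6 and Xrcc1 were among the most abundant of the 33 and Pms2 was not. Msh6, which recognises mismatches, measured 271, 112 and 279 CPM in the mutant libraries and 350, 138 and 273 CPM in the WT libraries. The mouse 2 libraries stood well below the rest in both genotypes, and the log2 fold change was -0.20 ± 0.43 (SE). Pms2, which nicks the strand to be corrected, had -0.15 ± 0.26. Parp1, the sensor that marks nicks with ADP-ribose, measured 562, 257 and 387 CPM in the mutant libraries and 491, 351 and 507 CPM in the WT libraries, with -0.16 ± 0.30. Xrcc1, the scaffold recruited by PARP1, measured 94.2, 69.6 and 83.4 CPM in the mutant libraries and 91.9, 94.4 and 95.7 CPM in the WT libraries. Its WT mice were tight and mutant mouse 1 lay within them, with a log2 fold change of -0.19 ± 0.18.

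**Figure D3:**
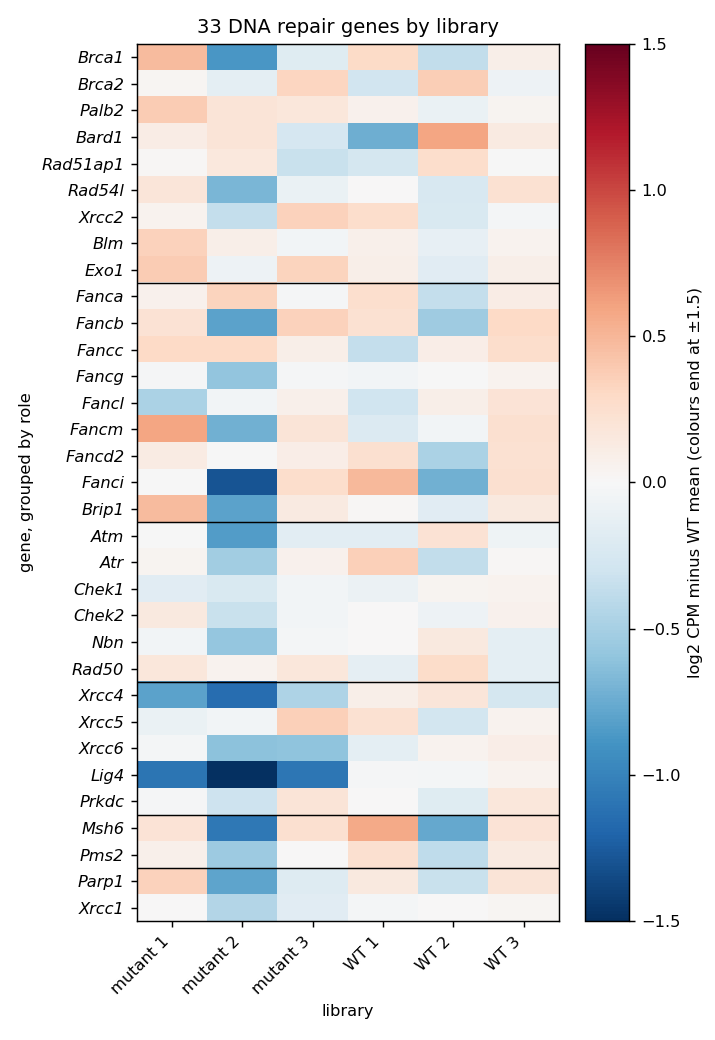
Log2 CPM of each of the 33 genes in each library minus its WT mean, with lines between roles; blue is lower, red higher, and the colours end at ±1.5, past which only Lig4 in mutant mouse 2 (-3.81) falls. Mutant mouse 2 is the lowest mutant library for 25 of the 33 genes, and Xrcc4 and Lig4 are blue in all 3 mutant mice.

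A single library carried much of the spread. Mutant mouse 2 was the lowest mutant library for 25 of the 33 genes, where it was the lowest for 43.7% of all genes tested. WT mouse 2 was the lowest WT library for 19 of 33, against 44.9% of all genes. For 15 genes both held, among them Brca1, Fanci, Fancb, Msh6, Pms2, Atr and Parp1. In mutant mouse 2, 16 of the 33 genes lay more than 0.5 log2 units below the WT mean, as did 28.5% of all genes. The median of the 33 genes against the WT mean was 0.06, -0.43 and 0.01 in the mutant libraries and 0.01, -0.10 and 0.08 in the WT libraries. The median of all genes in mutant mouse 2 was -0.03, and of genes of at least 4256 bases -0.46. The part of transcript length in the low values of the repair genes was not tested gene by gene. With the length trend removed their median log2 fold change was -0.03, and Xrcc4 and Lig4 had -0.82 and -1.61.

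By level, compared between genes in FPKM, which divides by gene length, the order was steep at the ends and flat between them. Xrcc6 (128.5 ± 9.52 FPKM in WT mice, SD, n = 3) and Parp1 (121 ± 25.7) led and did not differ beyond their spread, and Msh6 (61.6 ± 27.4) and Xrcc1 (44.8 ± 1.05) followed. Rad51ap1 (37.5 ± 5.79) and Rad54l (35.9 ± 6.41) came next and did not differ beyond their spread. Below them came Nbn (28.1 ± 2.52), Rad50 (26.9 ± 3.97), Chek2 (25.3 ± 1.74), Fancg (23.8 ± 0.94) and Xrcc5 (23.26 ± 4.601). Each step within this run was smaller than the larger SD of the pair. Fancl, Chek1, Pms2, Exo1, Fanci and Xrcc4 lay between 18.4 and 12.8 FPKM. Blm, Fancd2, Brip1, Xrcc2, Brca1, Fanca, Brca2, Palb2 and Fancc lay between 9.81 and 7.19 FPKM without a step larger than their SDs. Fancb, Atr, Atm, Fancm and Prkdc lay between 5.597 and 3.59 FPKM, and Lig4 (1.55 ± 0.07) and Bard1 (1.28 ± 0.52) were lowest. In mutant mice Lig4 averaged 0.50 ± 0.36 FPKM and was the lowest of the 33.

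**Figure D4:**
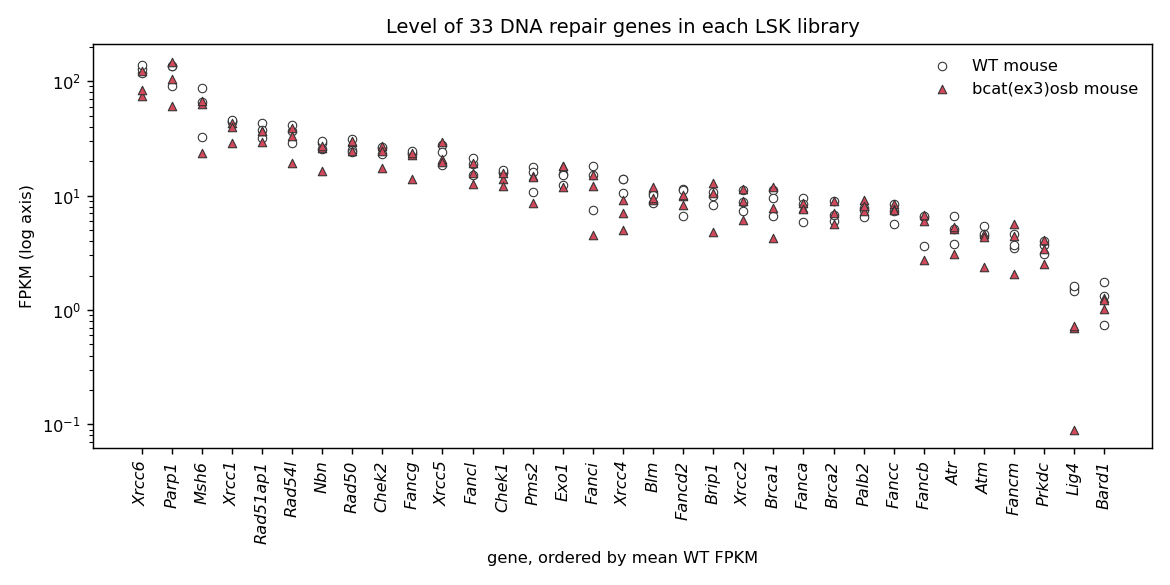
Deposited FPKM of each of the 33 genes in each library on a log axis, ordered by the WT mean; open circles are WT mice and red triangles mutant mice. Levels run from over 100 FPKM for Xrcc6 and Parp1 to under 2 FPKM for Lig4 and Bard1, and Lig4 is the gene with triangles farthest below its circles.

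The wider list of repair genes, 125 in the tables and 123 tested, is given for the rest of the pathways. Its median log2 fold change was -0.07, with 69 negative and 54 positive values, and 0 passed an adjusted p under 0.05. At an unadjusted p under 0.05, 2 of the 123 were higher and 4 lower, where 3.43% and 3.13% of all genes were, so the shares lay below or near those of all genes. These 6 are named as values and not as a result about repair. The 2 higher genes were Swsap1 (0.59 ± 0.24, SE) and Xrcc3 (0.55 ± 0.23), both recombination factors. The 4 lower genes were Nhej1, Parp3 (-0.96 ± 0.33), an ADP-ribosyltransferase of break repair, Neil1 (-0.73 ± 0.25), a glycosylase for oxidised bases, and Gtf2h3 (-0.48 ± 0.16), a subunit of TFIIH. Of these 6, Gtf2h3 had the narrowest range within each genotype: 70.5, 68.6 and 70.0 CPM in the mutant libraries and 101.5, 98.8 and 91.1 CPM in the WT libraries, with an edgeR adjusted p of 0.631.

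By role, the other homologous recombination genes had 15 positive and 14 negative values, with Rad51c at -0.77 ± 0.35 (SE). The other Fanconi genes had 6 positive and 5 negative values, with Fancf, a core adaptor, at 0.51 ± 0.24, and Ercc1 and Ercc4, the partners of a crosslink nuclease, at -0.45 ± 0.27 and 0.29 ± 0.25. Among other checkpoint genes, 9 positive and 11 negative, Trp53bp1, which favours end joining over resection, had -0.86 ± 0.44, Atrip, the partner of ATR, 0.29 ± 0.18, and Tipin, a fork protection factor, 0.45 ± 0.28. All 7 other mismatch repair genes had negative values, from -0.33 to -0.03, with Mlh3, Lig1 and Pms1 at -0.33 ± 0.28, -0.20 ± 0.20 and -0.17 ± 0.24. The other base excision genes had 7 positive and 12 negative values, with Nthl1, a glycosylase, at -0.50 ± 0.27. Nucleotide excision repair had 12 positive and 6 negative, with Ercc3 and Ercc6 at 0.35 ± 0.23 and 0.29 ± 0.24. Translesion synthesis had 3 positive and 7 negative, with the polymerase Poli at -0.42 ± 0.19, Rad18, the ligase that marks the sliding clamp, at 0.38 ± 0.20 and Hltf at -0.39 ± 0.33.

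Many recombination and Fanconi genes are transcribed mainly in cycling cells, so replication and mitosis genes are given beside them. The 30 replication and S phase genes had a median log2 fold change of 0.02, with 16 positive and 14 negative, and 0 reached an unadjusted p under 0.05. The 22 mitosis genes had a median of -0.17, with 6 positive and 16 negative, and 0 reached that p. The difference between these lists and the repair genes was not tested.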

How the data were processed

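RNA of LSK cells from 6 mice was sequenced, 1 library per mouse (AllPrep extraction and stranded total RNA libraries, according to the protocols in the labels). The submitters' processing notes list the tools featureCounts 1.5.0-p3, STAR 2.5.2b and bcl2fastq 2.17, and the build mm10. For the strand setting, the annotation and reads with several matches, the sources used here give nothing. Gene counts (whole numbers) and FPKM are as deposited by the authors, and the FPKM equalled the counts scaled by gene length and library total within 0.005.

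Genes were kept with filterByExpr by genotype (minimum count 10, minimum total 15), scaled by TMM and tested with edgeR 4.0.16 (R 4.3.3) by the two-sided quasi-likelihood F test with genotype as the only term, adjusted by Benjamini-Hochberg over 12653 genes. A log2 fold change compares mutant with WT, and its SE comes from the F statistic. P-values set the genotype difference against the spread between mice within a genotype. With genotype as the only term, differences of sex and between libraries are part of that spread. They can also enter the genotype difference itself, because only mutant mice 1 and 2 were male. The outlying library of mutant mouse 2 likewise counts in the mutant mean. The procedure was also run on simulated counts. These held no length trend, sex difference or outlying library, so that run does not bear on such features of these data. Values relative to the WT mean use log2 CPM with a prior count of 1.

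Members and lists were chosen with earlier results of these data known. Values in every library are given for the 10 members with the smallest unadjusted p, the highest and lowest by WT FPKM and the 3 with the widest spread within a genotype, and up to 3 genes per wider list are named. Xrcc5, Fancd2, Msh6, Parp1, Abhd13 and Tmem167 were given in full, and Gtf2h3 singled out, after their values were seen. Coordinates are from GENCODE M21 on GRCm38, which mm10 also names, and promoters from RefSeq on GRCm38.p6, with 27 members matched. Exons of 13 members overlap a gene on the opposite strand, 8 of them a tested gene (Rad54l, Fanca, Fancc, Fancl, Fanci, Xrcc4, Xrcc6 and Msh6), and these counts are uncertain. On the same strand, exons of Pms2 overlap Gm42421 by 394 bases and Rsph10b by 85. Those of Atr overlap Gm24004 by 178 bases and those of Parp1 overlap Mir6904 by 7. Strand cannot separate reads there, so these counts are uncertain too.

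Alternatives were RLE and upper-quartile scaling, DESeq2 1.42.0, limma-voom (limma 3.58.1), limma on log2(FPKM + 1) and log2(FPKM + 0.1), other filters, a threshold of 0.10, a robust fit, a length trend removed, the mouse number as a block, and leaving out each mouse. Sex as a covariate and leaving out the mouse 2 library of each genotype were added after seeing the data. With sex as a covariate, the genotype term compares mutant mouse 3, the only female mutant, with the WT mice.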

Additional observations from a re-analysis of the deposited data

How the results depend on the processing

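None of the 33 genes reached an adjusted p under 0.05 in any of the 20 alternatives, and the lowest adjusted p was 0.305, for Lig4 with the replicate block. Lig4, Xrcc4 and Xrcc6 were negative in all 20, from -1.95 to -0.80, from -0.98 to -0.47 and from -0.61 to -0.28. Over the 33 genes, 73 of 660 values changed sign, and 10 genes had no change. Among genes whose value exceeded its SE, Atm alone changed sign, to 0.0242 without the mouse 2 library of each genotype. The median of the 33 genes ran from -0.183 to 0.0582. Each value lay within 0.204 of the main one, the pooled SD of the library medians within a genotype. That SD is widened by mutant mouse 2, at -0.43, where the WT libraries lay between -0.10 and 0.08. Staying within it is therefore a weak check.

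Over all genes, edgeR called 0 higher and 0 lower, while DESeq2 called 101 higher and 68 lower, the replicate block gave 5 higher, and the length trend removed gave 1 higher with or without the block. Leaving out each mouse gave between 0 and 4 higher and between 0 and 13 lower. The cause was not tested. Same-numbered mice had correlations of their deviations of 0.11, 0.344 and 0.0567 across genes, mutant mouse 3 correlated best with WT mouse 1, and the mouse numbers are therefore treated as names. With the replicate block, 13.5% of genes had an unadjusted p under 0.05, against 6.56% without it, and Lig4 and Xrcc4 were again the 2 of the 33 genes under it. Depth limits Lig4 most, with 6 counts in mutant mouse 2, and 3 mice per genotype limit every comparison.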
